A study of Homo sapiens with 38 samples.

Results

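AXL, MET and the insulin-like growth factor receptor are growth factor receptors that a melanoma cell can signal through beside its mutant BRAF, and they are described here with their closest relatives, 1 ligand and 2 adaptors. The 9 genes were listed by name: the TAM receptors AXL, MERTK and TYRO3, the TAM ligand GAS6, the hepatocyte growth factor receptor MET, the receptors IGF1R and INSR, and the adaptors IRS1 and IRS2. They are 9 of 19775 genes that a probe set named alone, and all 9 were among the 18063 genes that passed the filter on low signal. The arrays carried 28 probe sets for them, each naming 1 of these genes alone, and 27 passed the filter. The exception was 243358_at of IGF1R, whose mean signal was 7.14.

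Gene expression had been measured on 38 one-colour Affymetrix arrays, 18 of A375, a human melanoma cell line that carries mutant BRAF and is called parental here, and 20 of 16R6-4, called resistant here. 16R6-4 is a single clone derived from A375 that is resistant to GSK436, so a difference between the lines is a difference between A375 and this clone. GSK436 (GSK2118436, dabrafenib) inhibits the RAF kinase and GSK212 (GSK1120212, trametinib) inhibits MEK, the next kinase of the pathway, which activates ERK. All cultures had been exposed for 24 h in RPMI1640 medium with serum. The 30 nM dose of GSK212 is given in the sample labels and not in the study's design text. Parental cells gave 3 arrays with DMSO, 2 with 0.1 µM GSK436, 2 with 1 µM GSK436, 3 with 10 nM GSK212, 2 with 30 nM GSK212, 3 with 10 nM GSK212 and 0.1 µM GSK436 (the low combination) and 3 with 10 nM GSK212 and 1 µM GSK436 (the high combination). Resistant cells gave 2 arrays with DMSO and 3 with each of the other 6 treatments. Separate cultures are not stated for the arrays within a group, so the p-values here reflect the spread from array to array, which may be technical. In an RNA extract of a whole culture, fewer cells that express a gene and less RNA per cell cannot be told apart.

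All of these receptors are tyrosine kinases of the cell surface. The TAM receptors bind GAS6 or protein S (PROS1), MET binds hepatocyte growth factor (HGF), and IGF1R and INSR bind insulin-like growth factors and insulin. IGF1R and INSR pass their signal on through IRS1 and IRS2, docking proteins that recruit PI3-kinase and so activate AKT, and AXL and MET also reach PI3-kinase and ERK. AKT holds FOXO transcription factors out of the nucleus, and the INSR and IRS2 genes are known FOXO targets in other tissues. In melanoma, a high AXL level marks a dedifferentiated state with low MITF, and receptor tyrosine kinases including AXL, MET and IGF1R have been linked to tolerance of BRAF and MEK inhibitors.

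The starts of 3 genes are shown because these genes carried most of the called changes. Each is the 250 bases before the RefSeq transcript start (GRCh38.p14), and capitals mark the letters GGGCGG on either strand, the GC box bound by SP1. The MET window lies at chr7:116671946-116672195 on the plus strand, the IGF1R window at chr15:98648289-98648538 on the plus strand, and the IRS2 window at chr13:109786584-109786833 on the minus strand.
MET: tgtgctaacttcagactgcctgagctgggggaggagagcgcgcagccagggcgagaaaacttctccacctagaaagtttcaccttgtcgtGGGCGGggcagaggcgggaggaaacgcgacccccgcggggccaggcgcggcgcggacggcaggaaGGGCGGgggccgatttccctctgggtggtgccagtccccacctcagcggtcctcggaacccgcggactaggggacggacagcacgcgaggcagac
IGF1R: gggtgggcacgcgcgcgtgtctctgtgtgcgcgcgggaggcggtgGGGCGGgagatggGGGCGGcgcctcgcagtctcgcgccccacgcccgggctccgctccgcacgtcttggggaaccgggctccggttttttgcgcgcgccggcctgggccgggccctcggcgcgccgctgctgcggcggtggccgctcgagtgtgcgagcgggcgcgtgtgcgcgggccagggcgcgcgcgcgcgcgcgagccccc
IRS2: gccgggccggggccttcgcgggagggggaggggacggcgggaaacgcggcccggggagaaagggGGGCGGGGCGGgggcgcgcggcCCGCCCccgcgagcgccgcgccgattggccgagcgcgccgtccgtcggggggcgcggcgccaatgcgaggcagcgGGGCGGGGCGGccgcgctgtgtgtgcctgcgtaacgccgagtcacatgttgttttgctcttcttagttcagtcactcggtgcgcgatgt
The RefSeq promoter table held all 9 genes, in 11 windows, since AXL and TYRO3 have 2 starts each. A GC box was present in 9 of these 11 windows, at least 1 for each gene, against 42.6% of all 35116 windows of the same length. The 3 windows shown hold 68.4%, 81.2% and 76.4% G and C for MET, IGF1R and IRS2, where the median of all windows was 58.0%. On either strand, the E-box CACGTG was found in 0 of the 9 genes (6.34% of all windows), the FOXO motif GTAAACA in 0 (2.98%), the ETS motif CCGGAAG in 0 (8.52%), and the AP-1 motif TGANTCA in 1 window, of TYRO3 (6.57%). A missing match says only that these letters are not in these windows.

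Values are MAS5 signals, linear intensities that the authors had scaled so that the trimmed mean of every array lay between 149.96 and 150.04. Median signals ran from 21.6 to 52.4. Changes are log2 fold changes with their standard errors from limma on log2(signal + 2.8), which understates the change of low signals, and a gene was called when its p, adjusted by Benjamini-Hochberg, was below 0.05 and its log2 change was 1 or more in size. The arrays also differed in the ratio of 3′ to 5′ actin signal, a measure of RNA integrity and labelling: it ran from 3.72 to 45 and exceeded 20 on 15 arrays. Its group mean was 7.75 in parental cells with DMSO and 5.46 in resistant cells with DMSO. It was higher in every parental drug group, from 10.7 (low combination) to 37.4 (0.1 µM GSK436), and in every resistant drug group, from 8.15 (high combination) to 22.7 (10 nM GSK212). With this ratio as a covariate 12 of the 24 calls among the 9 genes were lost and 8 were gained, and the values of the lost calls stand beside each result. With DMSO, the measured macrophage, fibroblast and endothelial markers had group means of at most 62.9 (LYZ) in both lines, and of the epithelial markers KRT18 was at 6510 in parental and 8580 in resistant cells while EPCAM and CDH1 were at 13.9 or lower. Of the melanocyte markers, MITF was at 364 and 1200 and SOX10 at 529 and 2.42, so that SOX10 was near 0 in the clone, and MLANA, PMEL and TYR were at 28.7 or lower in both lines.

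AXL, the receptor whose high level marks the dedifferentiated melanoma state, had signals between 2772 and 5469 on all 38 arrays and was called in 0 of 33 comparisons. Its brightest probe set, 202686_s_at, read 4750, 4251 and 4412 in parental cells with DMSO and 5469 and 4491 in resistant cells with DMSO. These groups overlapped, and the difference was 0.15 ± 0.16 (adjusted p = 0.776). With GSK436 alone, parental cells read 3019 and 3276 at 0.1 µM and 3448 and 2772 at 1 µM, below every parental DMSO array. The changes were -0.51 ± 0.16 (adjusted p = 0.019) and -0.53 ± 0.16 (adjusted p = 0.0122), which pass the test but not the fold threshold. In the high combination, parental cells read 3739, 4570 and 4128, overlapping DMSO. The change there was -0.11 ± 0.14 (adjusted p = 0.596). In resistant cells the 6 changes lay between -0.20 and 0.03, with adjusted p of 0.615 or higher, and the arrays of every drug group overlapped those with DMSO.

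The second AXL probe set went the other way in parental cells. 202685_s_at read 232.3, 188.7 and 263.6 with DMSO, 453.7 and 310.3 with 0.1 µM GSK436, and 202.5 and 461.1 with 1 µM GSK436. Its changes were 0.72 ± 0.29 (adjusted p = 0.071) and 0.43 with GSK436 alone, and 0.20 to 0.72 over the 6 treatments. With each array centred on its median, the brighter probe set passed the threshold, at -1.32 (adjusted p = 0.00206) and -1.24 (adjusted p = 0.00358), and with the actin ratio as a covariate it was at -0.24 (adjusted p = 0.25) and -0.31 (adjusted p = 0.0807). The direction of AXL under GSK436 in parental cells therefore depended on the probe set.

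MERTK and TYRO3, the other TAM receptors, and GAS6, their ligand, were called in 0 of 33 comparisons. MERTK was at the edge of measurement: its brightest probe set, 206028_s_at, ran from 1.08 to 81.35 with a mean of 20.4, and the filter lay at 34.88. Its changes against DMSO ran from -1.24 to 0.69 in parental and from -1.31 to 0.50 in resistant cells (lowest adjusted p 0.302 and 0.439). TYRO3 read 82.83, 83.69 and 84.44 in parental and 79.56 and 71.53 in resistant cells with DMSO. Its largest parental change was 0.72 and its largest resistant change -0.73 (lowest adjusted p 0.092 and 0.261). GAS6 read 79.55, 94.3 and 111.7 in parental and 86.05 and 91.28 in resistant cells with DMSO. GAS6 was above DMSO in the fitted mean of all 12 drug groups, by 0.06 to 0.68 in parental and 0.20 to 0.67 in resistant cells, and none of these passed the test (lowest adjusted p 0.12 and 0.296). The median change of all genes was also above 0 in these groups, at 0.17 to 0.39 in parental and 0.05 to 0.22 in resistant cells. Of the weaker probe sets, 211912_at of MERTK was called at 2.41 in the parental high combination (adjusted p = 0.0468) on a mean signal of 14.4.

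**Figure D1:**
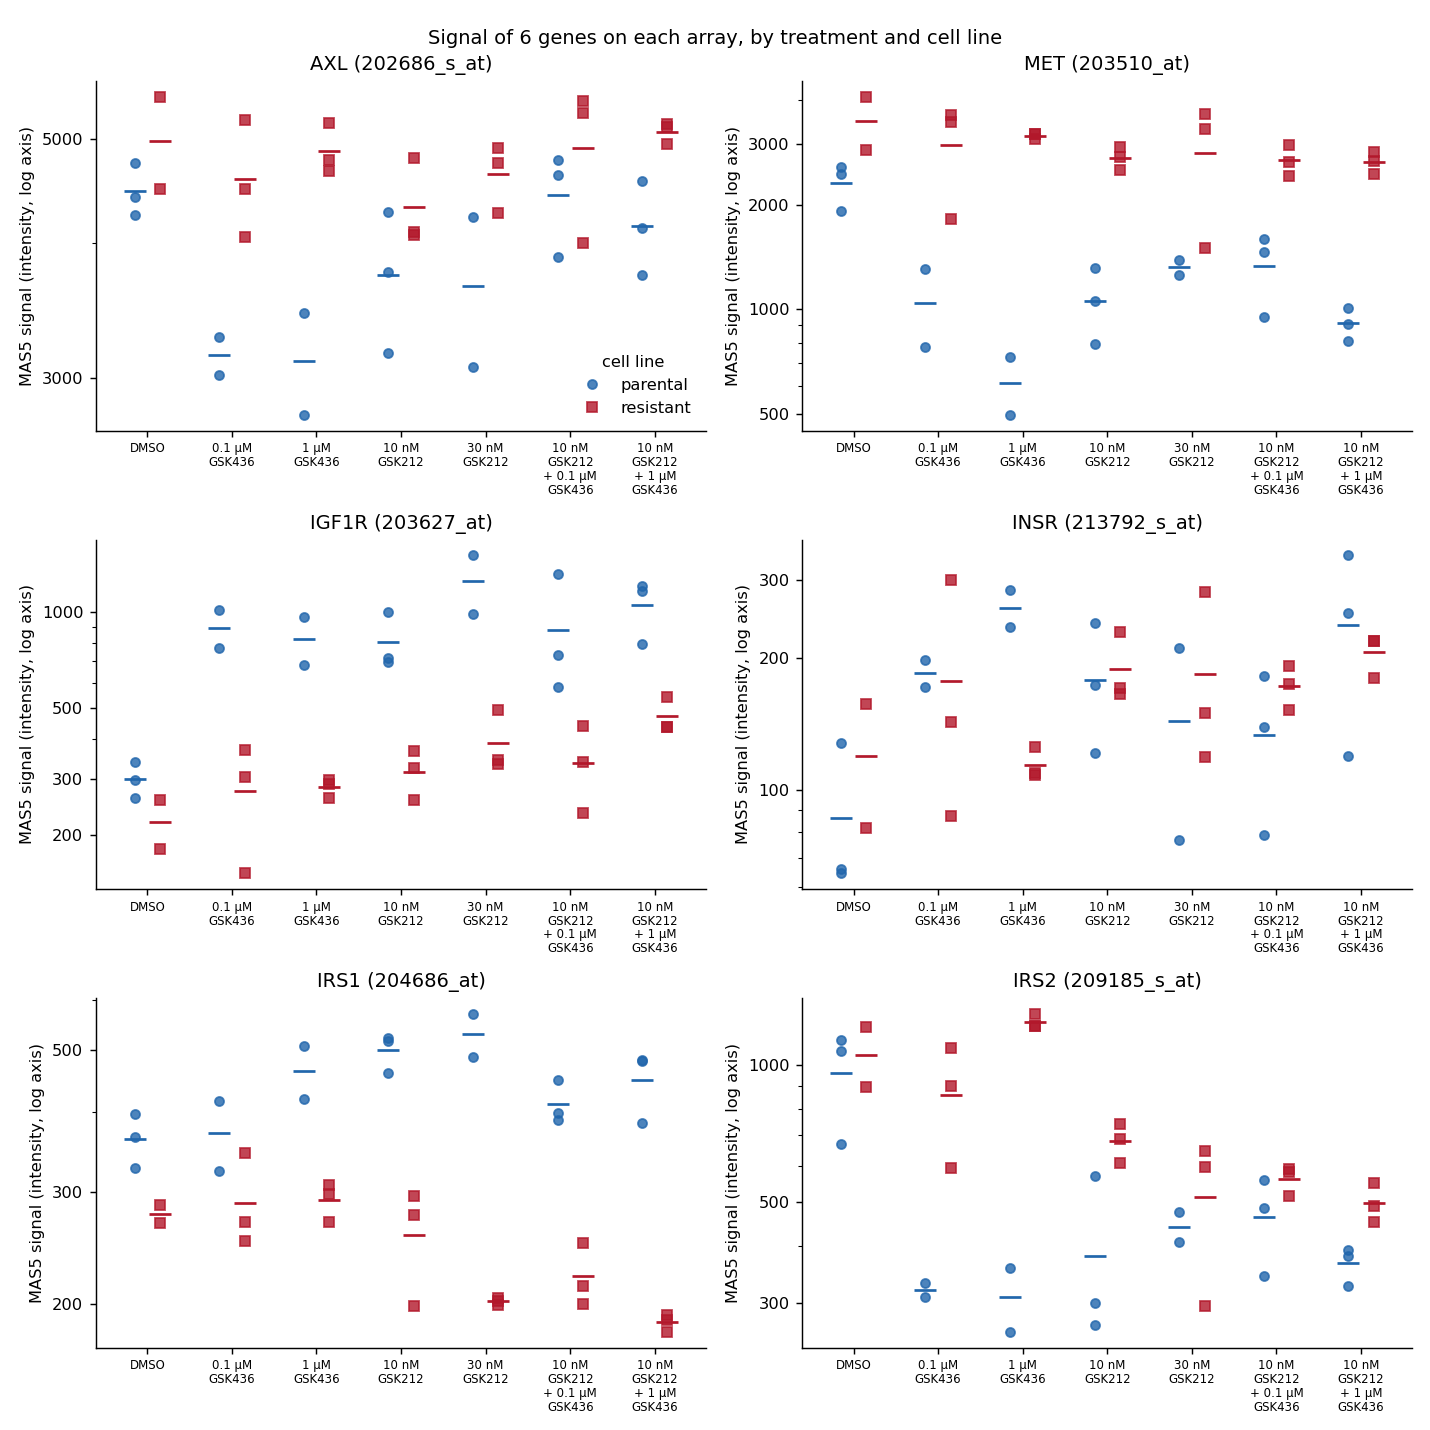
MAS5 signal (log axis) of the brightest probe set of AXL, MET, IGF1R, INSR, IRS1 and IRS2 on every array, by treatment; circles are parental arrays, squares resistant arrays and lines group means. MET and IRS2 lie lower and IGF1R higher on all parental drug arrays than on the parental DMSO arrays, while the resistant arrays of MET and IGF1R with GSK436 alone overlap or lie near those with DMSO.

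MET, the receptor of hepatocyte growth factor, was lower in drug-treated parental cells and was not called in any drug group of resistant cells. In parental cells the probe set 203510_at read 2561, 2459 and 1916 with DMSO, 778.9 and 1306 with 0.1 µM GSK436, and 726.1 and 496.3 with 1 µM GSK436. It read 793.2, 1054 and 1313 with 10 nM GSK212, and 1389 and 1254 with 30 nM. All of these lay below the lowest DMSO array. The low combination gave 950.5, 1465 and 1591 and the high combination 811.6, 1009 and 907.5. The group means were 2310 ± 347 (SD, n = 3) with DMSO, 611 ± 162 (SD, n = 2) with 1 µM GSK436 and 909 ± 98.7 (SD, n = 3) in the high combination.

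Against DMSO, parental MET fell by 1.18 ± 0.29 on the log2 scale with 0.1 µM GSK436 (2.27-fold, adjusted p = 0.00282) and by 1.93 ± 0.29 with 1 µM (3.81-fold, adjusted p = 5.97e-06). It fell by 1.15 ± 0.26 with 10 nM GSK212 (adjusted p = 0.0011) and by 1.34 ± 0.26 in the high combination (2.53-fold, adjusted p = 0.000166). With 30 nM GSK212 the change was -0.80 ± 0.29 (adjusted p = 0.0574), and in the low combination -0.81 ± 0.26 (adjusted p = 0.0237), under the fold threshold. These 4 calls stand beside 17.8%, 19.5%, 11.7%, 9.89%, 10.6% and 17% of all genes called in the 6 parental comparisons, in the order 0.1 and 1 µM GSK436, 10 and 30 nM GSK212, low and high combination. With the actin ratio as a covariate the 1 µM change was -1.52 (adjusted p = 6.95e-06) and the high combination change -1.0 (adjusted p = 0.000316). The 0.1 µM change was then -0.68 (adjusted p = 0.0518), and the 10 nM change -0.94 (adjusted p = 0.000419). Without array 2 of the 0.1 µM group the change at that dose was -0.81 (adjusted p = 0.131), and without array 1 of the 10 nM group the change there was -0.96 (adjusted p = 0.0157).

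Resistant cells read 2867 and 4090 for MET with DMSO, above all 3 parental DMSO arrays. The difference between the lines with DMSO was 0.58 ± 0.29 (adjusted p = 0.352) and was not called. The 1 µM GSK436 arrays read 3203, 3193 and 3095, all within the DMSO range. The high combination read 2830, 2678 and 2446, all below DMSO. The 6 resistant changes ran from -0.38 to -0.11, with adjusted p of 0.506 or higher. The lowest resistant arrays were 1504 (30 nM GSK212, array 1) and 1814 (0.1 µM GSK436, array 3). Their actin ratios of 45 and 37.4 were the highest of the resistant line.

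Of the 3 dimmer MET probe sets, 213816_s_at and 211599_x_at had changes near 0 under GSK436 alone, and 213807_x_at had changes like those of the bright one. 213816_s_at read 177.9, 145.6 and 224.8 with DMSO, 192.7 and 192.7 with 0.1 µM GSK436, and 197.6 and 211.7 with 1 µM GSK436 in parental cells, so its groups overlapped. Its changes there were 0.10 and 0.18. It fell by 1.06 with 10 nM GSK212 (adjusted p = 0.0249) and by 1.28 in the low combination (adjusted p = 0.00666). 211599_x_at fell by 1.07 with 10 nM GSK212 (adjusted p = 0.00568) and was at -0.22 and 0.05 with GSK436 alone. 213807_x_at, at a mean signal of 45.4, had changes of -1.37 and -1.85 with GSK436 alone that did not pass the test (adjusted p for 1 µM 0.0683). In resistant cells 213816_s_at fell by 1.23 in the high combination (adjusted p = 0.0346), where the bright probe set did not pass.

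**Figure D2:**
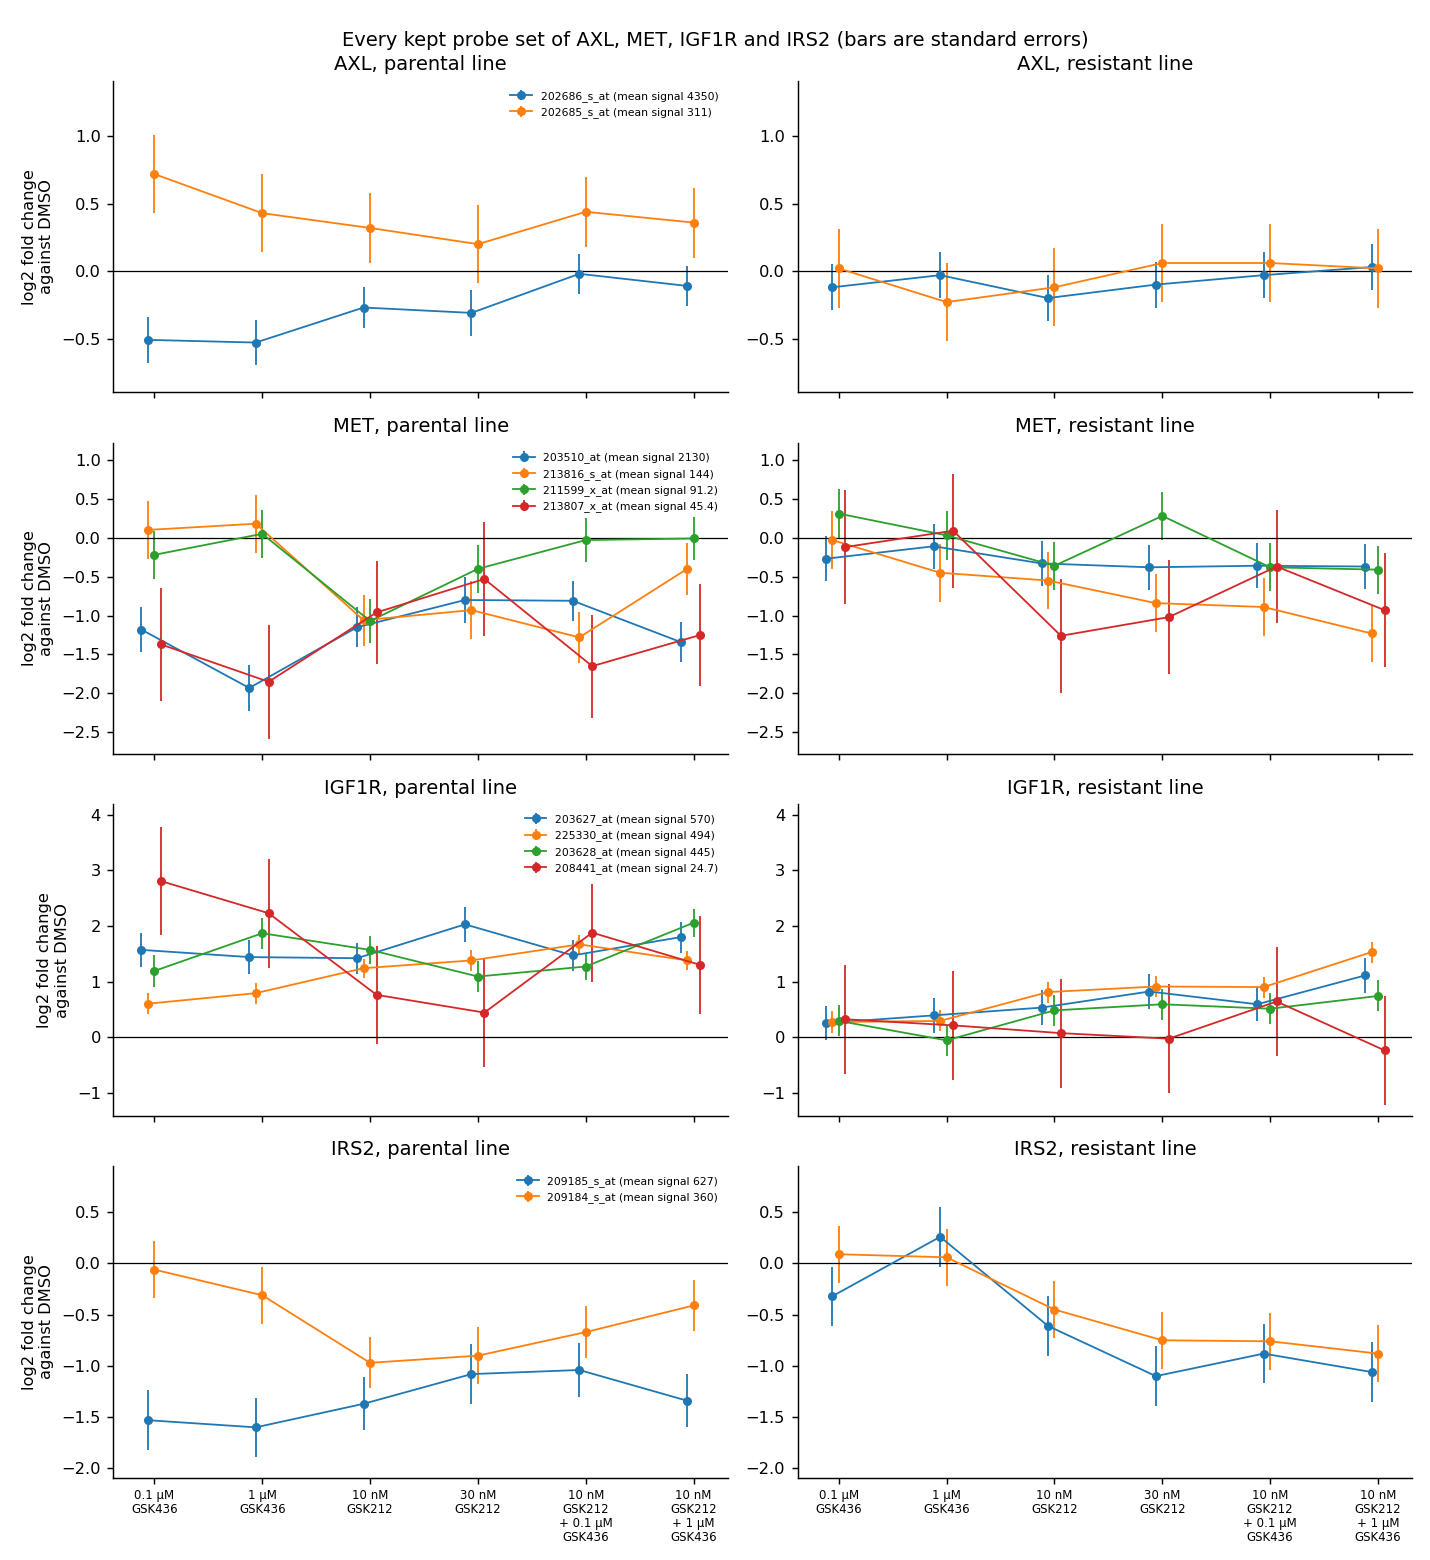
Log2 fold change against DMSO (points) with its standard error (bars) of every kept probe set of AXL, MET, IGF1R and IRS2 in the 6 treatments, parental on the left and resistant on the right; the legend gives each mean signal. In parental cells with GSK436 alone the probe sets of AXL, MET and IRS2 part, while the 3 bright IGF1R probe sets all lie above 0.

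IGF1R, the receptor of insulin-like growth factors, was higher in parental cells under every treatment. In parental cells the probe set 203627_at read 336.9, 260.8 and 296.3 with DMSO, 1013 and 773.8 with 0.1 µM GSK436, and 681.1 and 962.2 with 1 µM. It read 1001, 719.2 and 699.2 with 10 nM GSK212, and 989.6 and 1508 with 30 nM. No drug array overlapped DMSO. The low combination gave 1319, 731.6 and 580.2, and the high combination 1164, 792 and 1208. The group means were 298 ± 38.1 (SD, n = 3) with DMSO and 806 ± 169 (SD, n = 3) to 1250 ± 367 (SD, n = 2) in the drug groups.

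All 6 parental IGF1R changes were called. IGF1R rose by 1.57 ± 0.31 with 0.1 µM GSK436 (2.97-fold, adjusted p = 0.000357), 1.44 ± 0.31 with 1 µM (adjusted p = 0.000708), 1.42 ± 0.28 with 10 nM GSK212 (adjusted p = 0.000246) and 2.03 ± 0.31 with 30 nM (4.09-fold, adjusted p = 1.1e-05). In the low and high combinations it rose by 1.47 ± 0.28 (adjusted p = 0.000181) and 1.80 ± 0.28 (3.47-fold, adjusted p = 7.69e-06). The median change of all genes was also above 0, from 0.17 (10 nM GSK212) to 0.39 (both GSK436 doses). With arrays centred on their medians, which brought that median to between -0.43 and -0.12, the GSK436 changes were 0.76 (adjusted p = 0.0216) and 0.73 (adjusted p = 0.0289), and with the actin ratio as a covariate they were 0.97 (adjusted p = 0.00482) and 0.95 (adjusted p = 0.00299), all under the fold threshold. The other bright probe sets gave the same direction: 203628_at was called in 6 of 6 treatments (1.09 to 2.06) and 225330_at in 4 of 6 (0.60 to 1.67), the exceptions being the GSK436 doses alone.

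In resistant cells IGF1R was called in the high combination alone. It read 256.3 and 180.3 with DMSO, 289, 260.8 and 297.5 with 1 µM GSK436, and 435.3, 436.3 and 539.9 in the high combination. The 1 µM arrays all lay just above the higher DMSO array, and the high combination lay above both without overlap. IGF1R rose there by 1.11 ± 0.31 (2.16-fold, adjusted p = 0.0162). The 30 nM GSK212 arrays read 491.8, 332.8 and 342.2, a change of 0.82 (adjusted p = 0.12). In the order of the fitted resistant changes, 0.25, 0.39, 0.53, 0.59, 0.82 and 1.11 for 0.1 µM GSK436, 1 µM GSK436, 10 nM GSK212, the low combination, 30 nM GSK212 and the high combination, neighbours differed by less than the standard error of each, 0.31. Without DMSO array 2 the high combination change was 0.86 (adjusted p = 0.26), and without array 3 of that group 1.01 (adjusted p = 0.0688). The probe set 225330_at read 184.5 and 175.3 with DMSO and 451.2, 493.9 and 650 in the high combination, and rose by 1.53 there (adjusted p = 4.88e-07). That group's actin ratios were 3.72 to 12.1 and those of resistant DMSO 3.95 and 6.98. With the ratio as a covariate the change of 203627_at in the high combination was 0.99 (adjusted p = 0.0013), under the fold threshold.

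The calls in resistant cells stand beside a background of 0.00554% of genes called with 0.1 µM GSK436, 0.0775% with 1 µM, 2.77% with 10 nM GSK212, 4.31% with 30 nM, 4.86% in the low combination and 6.52% in the high combination. Of the 9 genes, 0, 0, 0, 1, 0 and 2 were called in these comparisons. In parental cells the counts were 3, 4, 3, 2, 2 and 4 of 9, where the backgrounds given above were 9.89% to 19.5%. With DMSO alone, 0 of the 9 genes differed between the lines at the thresholds, and 3.64% of all genes did (median of all genes -0.10, of the 9 genes -0.09).

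IGF1R was nevertheless lower in the clone on 2 of its probe sets. 225330_at read 356.6, 306.4 and 291.4 in parental and 184.5 and 175.3 in resistant cells with DMSO, a difference of -0.81 ± 0.19 (adjusted p = 0.00801). 203628_at read 253.6, 216 and 362.2 against 157.2 and 119.2, a difference of -0.97 ± 0.28 (adjusted p = 0.0463). Both pass the test and fall short of the fold threshold, and the brightest probe set gave -0.46 ± 0.31 (adjusted p = 0.577). IGF1R lies on chromosome 15, and of the 20 measured genes nearest to it 15 were below 0 in the clone, with a median of -0.70. TYRO3, on the same chromosome, had 18 of 20 neighbours below 0 with a median of -0.41, and the medians for the other 7 genes ran from -0.33 (IRS2) to 0.17 (GAS6), beside -0.10 for all genes. Of these neighbours 1 was called lower for IGF1R, 0 for TYRO3, 2 each for AXL and IRS2, and 1 for IRS1. For GAS6, which had 10 measured genes before it and 6 after, 1 was called higher. Of all 18063 genes, 391 were called lower and 266 higher.

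INSR, the insulin receptor, followed IGF1R in direction in parental cells with a wider spread. The probe set 213792_s_at read 66, 64.53 and 128 in parental cells with DMSO, 198.1 and 171.2 with 0.1 µM GSK436, and 234.5 and 285.2 with 1 µM GSK436. The high combination read 252.3, 119.5 and 342.2, where array 2 lay within the DMSO range. INSR rose by 1.63 ± 0.45 with 1 µM GSK436 (3.09-fold, adjusted p = 0.00668) and by 1.38 ± 0.41 in the high combination (adjusted p = 0.00996). The other 4 parental changes were 1.14 ± 0.45 (0.1 µM GSK436, adjusted p = 0.0582), 1.04 ± 0.41 (10 nM GSK212, adjusted p = 0.0648), 0.62 (30 nM, adjusted p = 0.41) and 0.61 (low combination, adjusted p = 0.344). Without array 3 of its group the 1 µM change was 1.49 (adjusted p = 0.0853). The high combination change was 1.23 (adjusted p = 0.053) without DMSO array 1, 1.22 (adjusted p = 0.0559) without DMSO array 2 and 1.06 (adjusted p = 0.0824) without array 3 of its group. Without DMSO array 3, the highest of them, the 0.1 µM and 10 nM changes were called, at 1.46 (adjusted p = 0.0226) and 1.36 (adjusted p = 0.0247), and the latter also without array 3 of its group, at 1.29 (adjusted p = 0.0331). With the actin ratio as a covariate, both called changes were under the fold threshold, at 0.99 (adjusted p = 0.0572) and 0.86 (adjusted p = 0.0574).

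Resistant cells read 156.6 and 81.72 for INSR with DMSO and 107.9, 109.2 and 125.4 with 1 µM GSK436, which lay between them. The 6 resistant changes ran from 0.01 to 0.84 (lowest adjusted p 0.282). Of the dimmer INSR probe sets, 226450_at rose by 1.64 with 0.1 µM GSK436 (adjusted p = 0.0197) and by 1.37 in the low combination (adjusted p = 0.0384) in parental cells. The remaining 3 INSR probe sets were not called in either line against DMSO.

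IRS2, an adaptor of IGF1R and INSR, was lower in parental cells under every treatment. In parental cells 209185_s_at read 1071, 1130 and 671.9 with DMSO, 333.2 and 309.3 with 0.1 µM GSK436, and 359.1 and 260.2 with 1 µM. It read 269.5, 301 and 571 with 10 nM GSK212, and 475 and 408.1 with 30 nM. All drug arrays lay below the lowest DMSO array. The low combination gave 343.9, 486.6 and 558.6, and the high combination 326.8, 393.2 and 381.9.

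IRS2 fell by 1.53 ± 0.29 on the log2 scale with 0.1 µM GSK436 (2.89-fold, adjusted p = 0.000164) and by 1.60 ± 0.29 with 1 µM (3.04-fold, adjusted p = 6.89e-05) in parental cells. It fell by 1.37 ± 0.26 with 10 nM GSK212 (adjusted p = 0.000116), by 1.08 ± 0.29 with 30 nM (adjusted p = 0.00719), by 1.04 ± 0.26 in the low combination (adjusted p = 0.0032) and by 1.34 ± 0.26 in the high combination (adjusted p = 0.000136). The 30 nM change was under the fold threshold without DMSO array 1 (-0.98), DMSO array 2 (-0.94) or array 3 of its group (-0.97, adjusted p = 0.112), and the low combination change without DMSO array 1 (-0.94), DMSO array 2 (-0.90) or array 1 of its group (-0.84). With the actin ratio as a covariate 3 of the 6 changes were under the fold threshold, at -0.98 (0.1 µM GSK436, adjusted p = 0.00167), -0.87 (30 nM GSK212, adjusted p = 0.00142) and -0.97 (high combination, adjusted p = 0.000145). The other 3 remained called, at -1.15, -1.14 and -1.01. The second probe set, 209184_s_at, read 508.1, 465.8 and 489.3 with DMSO and 508.7 and 427.4 with 0.1 µM GSK436, where the groups overlapped. Its changes with GSK436 alone were -0.06 (adjusted p = 0.892) and -0.31 (adjusted p = 0.452). With 10 nM GSK212 it read 285.6, 284.8 and 187.6, a change of -0.97 (adjusted p = 0.0052), and with 30 nM its change was -0.90 (adjusted p = 0.0282). The lower IRS2 level under GSK212 alone thus appeared on both probe sets, and that under GSK436 alone on the brighter one.

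In resistant cells IRS2 was called lower with 30 nM GSK212 and in the high combination. It read 893.6 and 1209 with DMSO and 1292, 1216 and 1217 with 1 µM GSK436, all above the higher DMSO array. It read 296, 595.6 and 646.9 with 30 nM GSK212, and 551.9, 489.2 and 453.1 in the high combination. Both of these groups lay below DMSO without overlap. IRS2 fell by 1.10 ± 0.29 with 30 nM GSK212 (2.14-fold, adjusted p = 0.0136) and by 1.06 ± 0.29 in the high combination (adjusted p = 0.0115). With 10 nM GSK212 the change was -0.61 (adjusted p = 0.291), and in the low combination -0.88 ± 0.29 (adjusted p = 0.0501). Without array 1 of the 30 nM group, the array with the actin ratio of 45, the change was -0.74 (adjusted p = 0.147), and without DMSO array 2 it was -0.88 (adjusted p = 0.265). The high combination change was -0.84 (adjusted p = 0.211) without DMSO array 2 and -1.0 (adjusted p = 0.0457) without array 3 of its group. With the actin ratio as a covariate both changes were under the fold threshold, at -0.77 (30 nM GSK212, adjusted p = 0.0136) and -0.95 (high combination, adjusted p = 0.000682).

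IRS1, the other adaptor, was not called in any of the 33 comparisons. In parental cells 204686_at read 365.5, 327.3 and 397 with DMSO, 461.5, 516.5 and 522.5 with 10 nM GSK212, and 488.9 and 570.7 with 30 nM, so that both GSK212 groups lay above DMSO. The changes were 0.46 (adjusted p = 0.0401) and 0.54 (adjusted p = 0.0376), under the fold threshold. In resistant cells it read 267.9 and 285.6 with DMSO and 181, 192.3 and 188.8 in the high combination, all lower. The change was -0.56 ± 0.18 (adjusted p = 0.0428). The dimmer 238933_at read 85.51 and 95.09 with DMSO and 18.92, 10.68 and 51.72 in the resistant high combination, and fell by 1.88 (adjusted p = 0.00388), while in the parental high combination it read 177.3, 144.1 and 229 against 123.2, 102.6 and 138.6 with DMSO.

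**Figure D3:**
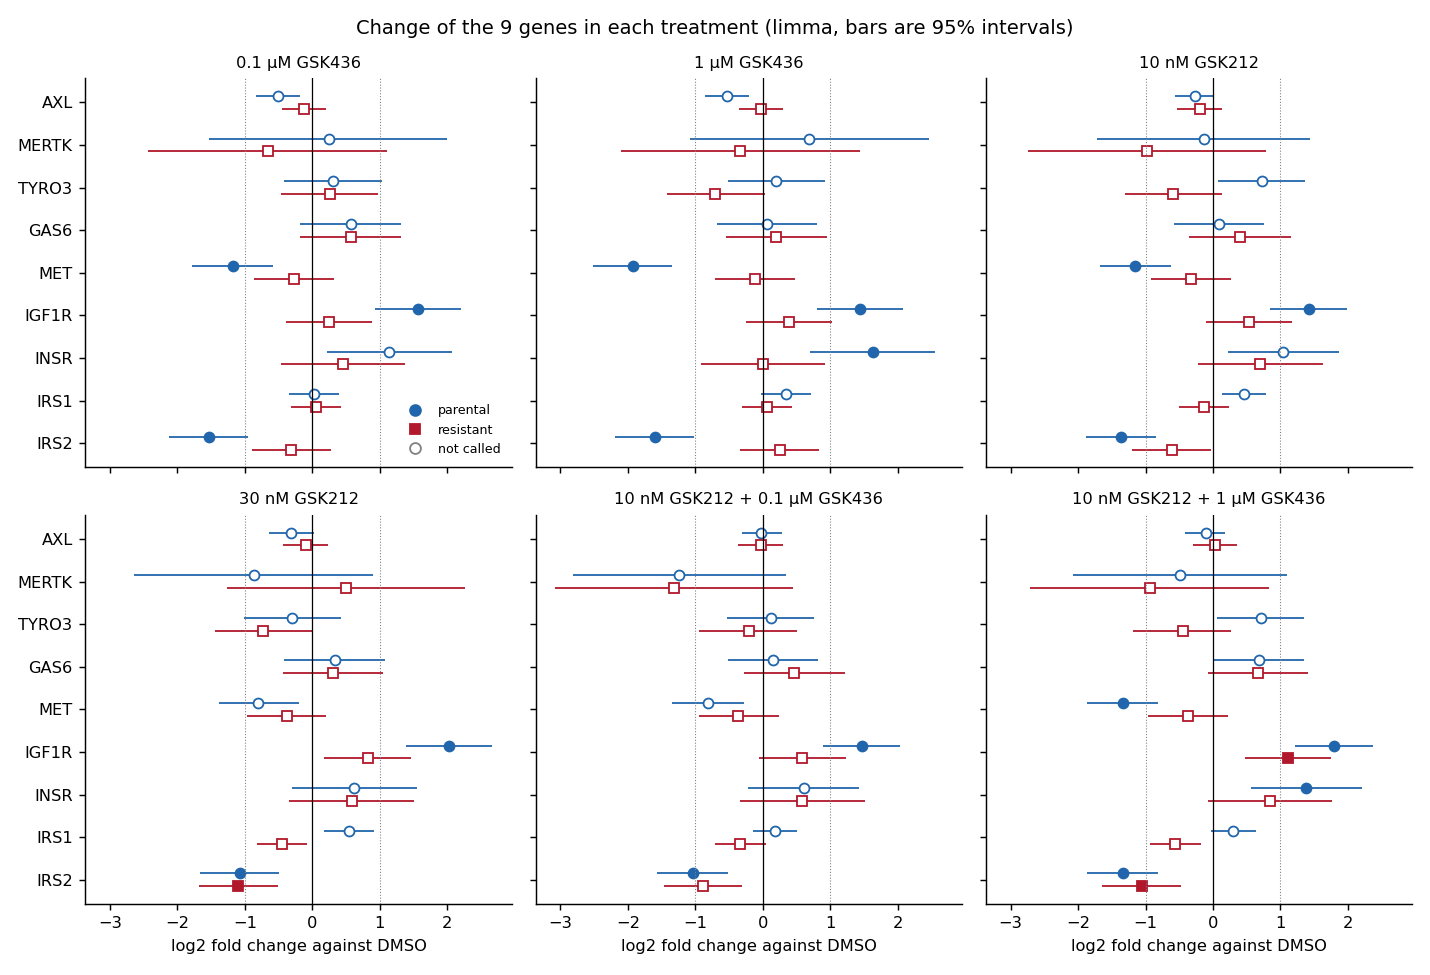
Log2 fold change against DMSO of the 9 genes in each treatment, with 95% confidence intervals as bars; circles are parental and squares resistant cells, filled where called, and dotted lines mark the fold threshold of 1. IGF1R and IRS2 are filled in all 6 parental panels, and in resistant cells IRS2 is filled at 30 nM GSK212 and both IGF1R and IRS2 in the high combination.

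The difference between the lines in each drug change was tested as an interaction. With 1 µM GSK436 the change of MET was 1.81 ± 0.41 higher in resistant than in parental cells (95% interval 0.98 to 2.65, adjusted p = 0.00304), and that of IRS2 was 1.86 ± 0.41 higher (interval 1.03 to 2.68, adjusted p = 0.00226). These are 2 of 9 genes, where 11% of all genes were called. With the actin ratio as a covariate, fitted as 1 slope per gene over all arrays, the differences were 1.56 (adjusted p = 0.000568) and 1.58 (adjusted p = 0.000178). The ratios of the parental arrays with 1 µM GSK436, 23.3 and 32.6, did not overlap those with DMSO. Ratio and drug thus cannot be told apart from these arrays alone. Neither difference was called on the second probe set, where MET was at -0.63 (adjusted p = 0.559) and IRS2 at 0.37 (adjusted p = 0.671). With the mean of all probe sets the MET difference was 0.77 (adjusted p = 0.129). Of the 2 dimmest MET probe sets, 213807_x_at was at 1.94 and not called, and 211599_x_at lay between -0.40 and 0.72 over the 6 treatments. The brightest IGF1R probe set gave -1.05 ± 0.45 at this dose (adjusted p = 0.117), and 203628_at gave -1.93 ± 0.40 (adjusted p = 0.00199). On 203628_at parental cells read 1021 and 971.1 with 1 µM GSK436, and resistant cells 162.8, 109.4 and 127.2. INSR gave -1.62 ± 0.64 (adjusted p = 0.0927). INSR was called there with arrays weighted by their fit to the model (-1.84, adjusted p = 0.00981), and with only the groups compared in the model both IGF1R (adjusted p = 0.0305) and INSR (adjusted p = 0.0384) were called.

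In the other 5 treatments 0 of 9 genes differed between the lines in their change at the thresholds, beside 4.17% of all genes with 0.1 µM GSK436, 1.9% with 10 nM GSK212, 0.792% with 30 nM, 0.786% in the low combination and 1.05% in the high combination. At 0.1 µM GSK436 the differences were 1.22 ± 0.41 for IRS2 (adjusted p = 0.079), -1.32 ± 0.45 for IGF1R (adjusted p = 0.0823) and 0.91 ± 0.41 for MET (adjusted p = 0.23). Without array 3 of the resistant 0.1 µM group, whose actin ratio was 37.4, these were called at 1.46 (adjusted p = 0.0183), -1.58 (adjusted p = 0.0205) and 1.24 (adjusted p = 0.0404). Without parental DMSO array 3 the IRS2 difference was called at 1.45 (adjusted p = 0.0275). With the actin ratio as a covariate 8 more differences were called in these 5 treatments: those of IGF1R with 0.1 µM GSK436 (-1.09), 10 nM GSK212 (-1.15), 30 nM GSK212 (-1.33) and in the low combination (-1.32), of IRS2 with 0.1 µM GSK436 (1.0) and 10 nM GSK212 (1.0), of MET with 10 nM GSK212 (1.04) and of IRS1 with 30 nM GSK212 (-1.01). With arrays weighted by their fit to the model 7 more were called in them: MET (1.28), IGF1R (-1.09) and IRS2 (1.48) with 0.1 µM GSK436, TYRO3 (-1.6) and IRS2 (1.12) with 10 nM GSK212, IRS1 with 30 nM (-1.0) and MET in the high combination (1.04). With the replicate numbers as a block in the model, IGF1R was called with 0.1 µM GSK436 (-1.51, adjusted p = 0.0372). The absence of calls in these treatments therefore depended on the setting. With 30 nM GSK212 the IRS2 difference was -0.02 (interval -0.84 to 0.81) and the MET difference 0.42 (interval -0.42 to 1.25). IRS1 was nearest to a call there, at -0.99 ± 0.26 (adjusted p = 0.0559), followed by -0.86 ± 0.24 in the high combination (adjusted p = 0.0818). With quantile normalization the 30 nM difference of IRS1 was called (-1.06, adjusted p = 0.038). Its high combination difference was called with the mean of all probe sets (-1.32, adjusted p = 0.033) and on the second probe set (-2.45, adjusted p = 0.0341). The AXL differences ran from -0.01 to 0.50 (lowest adjusted p 0.147).

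Adding GSK212 to GSK436 changed IRS2 in resistant cells. IRS2 fell by 1.32 ± 0.26 in the high combination against 1 µM GSK436 alone (2.49-fold, adjusted p = 0.000447), where 5.53% of genes were called. IRS1 differed there by -0.63 ± 0.16 (adjusted p = 0.00827) and IGF1R by 0.73 ± 0.28 (adjusted p = 0.0989). The IGF1R probe set 225330_at was called higher in this comparison, by 1.24. Its mean signal was 221 with 1 µM GSK436 and 532 in the high combination. In the low combination against 0.1 µM GSK436, with 4.62% of genes called, the IRS2 difference was -0.57 (adjusted p = 0.189). Against 10 nM GSK212, the low and high combinations had 0.00554% and 0.559% of genes called and 0 of 9. In parental cells 0 of 9 genes were called in any of the 4 combination comparisons: 1.26% of genes were called for the low combination against 0.1 µM GSK436, 0.00554% against 10 nM GSK212, 0.0166% for the high combination against 1 µM GSK436 and 0.343% against 10 nM GSK212. On single probe sets, 225330_at of IGF1R was called higher in the parental low combination against 0.1 µM GSK436. Its mean signals were 1020 and 486.

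Between doses of the same drug, 0 of 9 genes were called. The background was 0.255% in parental and 0.111% in resistant cells for 1 against 0.1 µM GSK436, 0% in both lines for 30 against 10 nM GSK212, and 0.46% and 0.172% for the high against the low combination. For MET, the parental difference between 1 and 0.1 µM GSK436 was -0.75 (interval -1.39 to -0.10, adjusted p = 0.451). For IRS2 in resistant cells, 30 nM against 10 nM GSK212 gave -0.48 (interval -1.0 to 0.04, adjusted p = 1.0).

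The actin ratio moved with some of these signals. Both parental GSK436 groups consisted of arrays with ratios between 23.3 and 37.5, while the 3 parental DMSO arrays had 4.59 to 12. In parental cells with 10 nM GSK212, the array with the lowest ratio, 5.9, gave the highest MET (1313) and IRS2 (571) signals and the lowest IGF1R signal (699.2) of its group. In the parental low combination, arrays 2 and 3, with ratios of 4.26 and 4.64, gave MET signals of 1465 and 1591 and IGF1R signals of 731.6 and 580.2, and array 1, with a ratio of 23.1, gave 950.5 and 1319. Without the arrays above 20, 4 of the 15 calls that could be refitted were lost, and 41 values that had not been called changed sign. The lost calls were those of IRS2 in parental cells with 30 nM GSK212 (-0.97, adjusted p = 0.0644) and in the low combination (-0.84, adjusted p = 0.0274), of INSR in the parental high combination (0.53, adjusted p = 0.496) and of IRS2 in resistant cells with 30 nM GSK212 (-0.74, adjusted p = 0.149). With 10 nM GSK212 in parental cells, MET was then at -1.17 (adjusted p = 0.000221), IGF1R at 1.49 (adjusted p = 0.000328) and IRS2 at -1.24 (adjusted p = 0.0015). The part of the ratio in the GSK436 changes was not tested by leaving arrays out, since no parental array with GSK436 alone was below 20. The covariate values of these changes rest on 1 slope per gene fitted over all arrays.

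**Figure D4:**
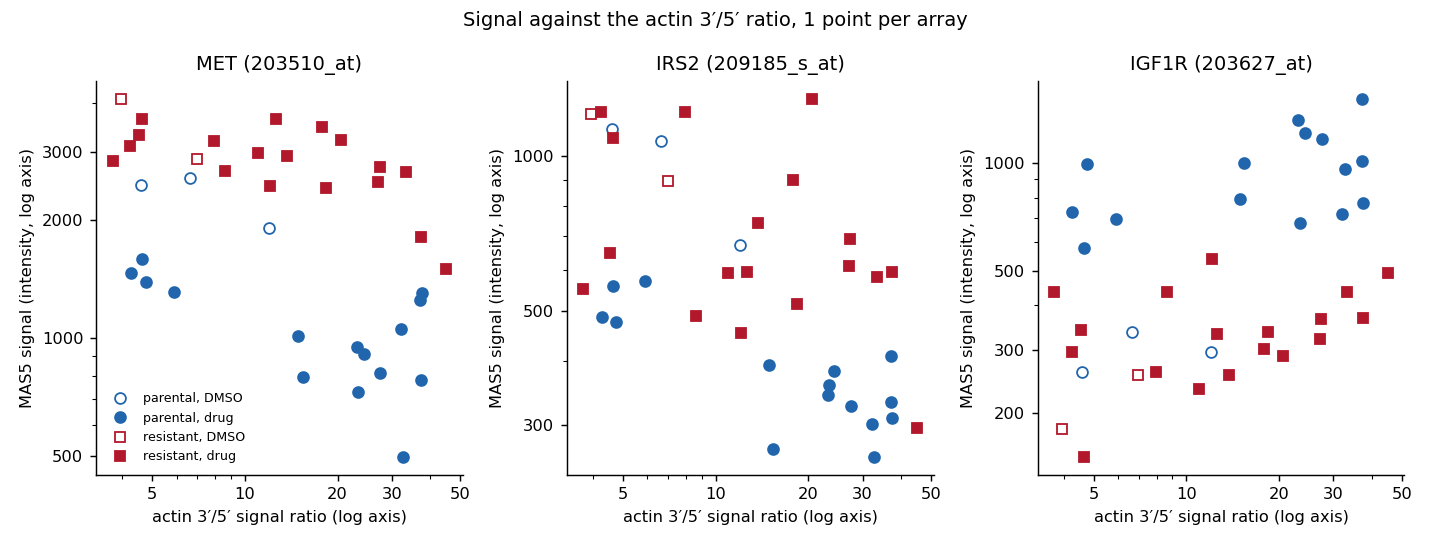
MAS5 signal of MET, IRS2 and IGF1R (log axis) against the actin 3′/5′ ratio (log axis), 1 point per array; open symbols are DMSO, filled symbols drug, circles parental and squares resistant. Resistant arrays stay above most parental drug arrays for MET over the whole range of the ratio, and the lowest resistant signals of MET and IRS2 stand at the highest ratio, 45.

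Binding proteins of insulin-like growth factors and PROS1 were called between the lines where the receptors were not. Of a list of 21 ligands, binding proteins and related receptors 17 were measured, and with DMSO 2 were higher and 1 lower in the clone (median -0.47, all genes -0.10), where 3.64% of all genes were called. PROS1, the other TAM ligand, was at 52.6 in parental and 223 in resistant cells, a rise of 2.02 ± 0.35 (adjusted p = 0.000157). IGFBP3, a binding protein of insulin-like growth factors, was at 196 and 727, a rise of 1.88 ± 0.22 (adjusted p = 1.94e-07). IGFBP5 fell from 73.9 to 6.74, by 3.08 ± 0.71 (adjusted p = 0.00447). The ligands HGF, at 39.1 and 13.5, and IGF1, at 12.4 and 19.9, were near or below the filter in both lines.

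In parental cells 3 or 4 of these 17 genes rose and 2 fell in each treatment (medians 0.09 to 0.64), where 9.89% to 19.5% of all genes were called and their medians were 0.17 to 0.39. With 1 µM GSK436, IGFBP6 rose by 2.89 ± 0.27 (785 to 5780, adjusted p = 1.29e-09), IGFBP5 by 2.56 and MST1, the ligand of the MET relative MST1R, by 2.44, while IGFBP4 fell by 1.77 and IGFBP7 by 1.77. In resistant cells 0 of the list were called with GSK436 alone, where 0.00554% and 0.0775% of all genes were called, and with GSK212 or a combination 1 or 2 rose and 1 fell (2.77% to 6.52% of all genes). In the resistant high combination IGFBP3 rose by 1.43 (adjusted p = 1.71e-05), to 1980, and IGFBP4 fell by 1.95 (adjusted p = 0.0012). IGFBP3 differed between the lines in its change with 10 nM GSK212 by 2.34 ± 0.30 (adjusted p = 5.53e-06), with 30 nM by 2.10, and in the combinations by 1.91 and 1.82. IGFBP6 differed the other way with 1 µM GSK436, by -3.29 ± 0.39 (adjusted p = 5.36e-07).

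Of 31 adaptors and PI3K-AKT pathway genes 27 were measured. With DMSO, where 3.64% of all genes were called, 2 were higher in the clone: GRB14 by 2.58 ± 0.52 (adjusted p = 0.000941) and GRB10 by 1.35 ± 0.28 (adjusted p = 0.00163), both adaptors that bind IGF1R and INSR and restrain them. In parental cells 1 to 5 of the 27 rose and 0 to 3 fell, with medians of 0.06 to 0.40, beside the 9.89% to 19.5% of all genes called and their medians of 0.17 to 0.39. GRB10 rose by 1.98 ± 0.28 with 1 µM GSK436 (adjusted p = 2.66e-06) and by 1.97 ± 0.25 in the high combination (adjusted p = 2.87e-07). RHEB, the GTPase that activates mTOR, fell by 1.64 with either GSK436 dose, and FOXO3 rose by 1.27 ± 0.13 with 10 nM GSK212 (adjusted p = 1.76e-09). In resistant cells 0 were called with GSK436 alone, where 0.00554% and 0.0775% of all genes were called. In the high combination, with 6.52% of all genes called, 3 rose: GRB10 by 1.87 ± 0.28 (113 to 422, adjusted p = 1.15e-05), PIK3CD by 1.33 and PIK3R3, a regulatory subunit of PI3-kinase, by 1.20.

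All 14 genes of a list of FOXO targets were measured. In parental cells 3 to 6 rose and 0 to 2 fell, where 9.89% to 19.5% of all genes were called. In resistant cells 0 were called with either GSK436 dose, where 0.00554% and 0.0775% of all genes were. With 10 nM GSK212, 30 nM GSK212, the low and the high combination 5, 7, 6 and 6 rose and 0 fell, beside 2.77%, 4.31%, 4.86% and 6.52% of all genes called. Their medians in these resistant groups were 0.63 to 0.86, where all genes had 0.17 to 0.22. In the resistant high combination ERBB3, a receptor that also signals to PI3-kinase, rose by 2.80 ± 0.54 (adjusted p = 0.000389), PDK4 by 2.41, CCNG2 by 2.24, FBXO32 by 1.83 and CDKN1B by 1.68. None of the 14 differed between the lines in a drug change at the thresholds. With DMSO, where 3.64% of all genes were called, 1 was higher and 2 lower in the clone: CITED2 at 2.43, ERBB3 at -5.02 and PDK4 at -2.06.

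Of 16 genes that report ERK activity 14 to 16 fell in each parental treatment (medians -3.40 to -2.52), where 9.89% to 19.5% of all genes were called. In resistant cells 0 fell with either GSK436 dose (0.00554% and 0.0775% of all genes called) and 11 to 14 with GSK212 or a combination (2.77% to 6.52% called, medians -3.19 to -2.38). DUSP6, an ERK phosphatase and target, changed by -4.83 with 1 µM GSK436 and by -5.89 in the high combination in parental cells, and by -6.15 in the resistant high combination. IRS2 was called lower in the same 6 parental groups, and in 2 of the 4 resistant groups with GSK212, on its brighter probe set. The other IRS2 probe set was called in 0 of these groups, since its falls did not reach the fold threshold. Over the 6 treatments its changes ran from -0.97 to -0.06 in parental and from -0.88 to 0.09 in resistant cells. The lowest adjusted p were 0.0052 and 0.0461. IGF1R was called higher in the same 6 parental groups. A link between IRS2 and ERK output was not tested.

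Of 15 genes of the AXL-high melanoma state 14 were measured, and with DMSO 2 were higher and 3 lower in the clone (median -0.01), where 3.64% of all genes were called. NGFR fell by 4.10, TNC by 2.49 and WNT5A by 2.10, while CCN2 rose by 1.73 and CCN1 by 1.58. In parental cells 1 to 3 rose and 5 to 7 fell, among them CCN2 by 3.21 with 1 µM GSK436, beside 9.89% to 19.5% of all genes called. In resistant cells 0 were called with GSK436 alone, where 0.00554% and 0.0775% of all genes were, and 2 or 3 rose and 3 fell with GSK212 or a combination (2.77% to 6.52% called). Of 12 melanocytic genes 11 were measured, of which with DMSO SOX10, ERBB3 and RAB27A were lower in the clone, by 6.65, 5.02 and 1.30, and MITF was higher, by 1.73. AXL itself was not called between the lines.

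Over the 14 group means of log2 signal, MET was most like PAICS (r = 0.993), PAK2 (r = 0.991) and MTERF3 (r = 0.986). IGF1R was most like SLC35D2 (r = 0.983), CYP1B1 (r = 0.978) and LINC00685 (r = 0.977), and IRS2 most like PALB2 (r = 0.978), NUP205 (r = 0.977) and HNRNPAB (r = 0.976). AXL was most like HSP90AB1 (r = 0.952), MRPL34 (r = 0.948) and YIPF6 (r = 0.946), IRS1 most like KCNMA1 (r = 0.964), CAMK2N1 (r = 0.961) and SHROOM1 (r = 0.955), and INSR most like HIP1R (r = 0.949), SLC75A1 (r = 0.937) and NXPH4 (r = 0.935). For TYRO3, GAS6 and MERTK the closest genes were COPS6 (r = 0.897), TMEM132E (r = 0.881) and ERICH5 (r = 0.891). Among the 9 genes, MET and AXL had r = 0.87, MET and IRS2 0.84, MET and IGF1R -0.88, and IGF1R and IRS2 -0.86. These are descriptions over 14 means that share the 2 lines, the 7 treatments and the differences in actin ratio.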

How the data were processed

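Gene expression of 2 cell lines under 7 treatments was taken from 38 arrays in 14 groups, with groups, doses and replicate numbers from the labels. The deposited intensity values, 1 for each of 54675 probe sets, were made by the authors with MAS5, per the submitters' processing notes, with no version given. No detection calls were used. Probe sets were named with the platform's annotation: 41097 name 1 gene, 1801 several and 11777 none, and only the first were used. RefSeq held 41043 of them under the same symbol.

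Probe sets above 34.88, the pooled median, on at least 2 arrays were kept (35888), and the one with the highest mean log2 signal stood for its gene. The log2 of signal + 2.8, the 10th percentile of all values, was fitted with 1 mean for each of the 14 groups, which left 24 residual degrees of freedom, in limma 3.58.1 under R 4.3.3 (eBayes with trend). All 33 comparisons, 6 of them differences between lines, were adjusted by Benjamini-Hochberg over all 18063 genes. Values of single probe sets are from the same fit on all 35888. Arrays of a group correlated at r = 0.846 to 0.937 (34 pairs), and their number limits the precision. The fit was tested on simulated data. Figures were drawn with matplotlib 3.10.9.

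The 9 genes, the lists and the cell type markers were chosen with earlier results of these data known. Named beside the 9 genes are up to 5 called members of each list by size of change, the 3 genes most correlated with each over the 14 group means, and DUSP6, MITF and SOX10. Chromosomal neighbours are the measured genes nearest in RefSeq's order. List members that no single probe set named were not analysed here. Alternatives were the normalization, pseudocount, filter, probe set choice, trend, array weights, actin ratio, groups fitted, replicate block and leaving out arrays. Those on second probe sets and on leaving out arrays above an actin ratio of 20 were added after seeing the data.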

Additional observations from a re-analysis of the deposited data

Results flagged for a closer look

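With 1 µM GSK436 the change of MET was 1.81 ± 0.41 (SE) higher on the log2 scale in resistant than in parental cells (adjusted p = 0.00304, limma), and that of IRS2 was 1.86 ± 0.41 higher (adjusted p = 0.00226); both are differences between lines in the same drug change, tested as an interaction. On single probe sets, the change of 203628_at of IGF1R with 1 µM GSK436 differed by -1.93 ± 0.40 (adjusted p = 0.00199). The change of 238933_at of IRS1 in the high combination differed by -2.45 ± 0.58 (adjusted p = 0.0312). On other probe sets of these genes the matching differences did not pass the test. No group held 4 arrays or more, so no array was tested as an outlier.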

How the results depend on the processing

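None of the 9 genes was called between the lines with DMSO under any alternative. The 18 parental calls became 8 with the mean of all probe sets, 9 with the actin ratio as a covariate and 6 on the second probe set, and 15 to 20 when single arrays were left out. The 3 resistant calls became 1 with quantile normalization, 1 with the mean of probe sets and 0 with the actin covariate (0 to 3 without single arrays). The 2 differences between lines became 10 with array weights and 10 with the actin covariate. They became 4 with only the groups compared and 4 with the replicate block (2 to 5 without single arrays). On the second probe set those of MET and IRS2 were lost. The 1 call there was that of IRS1 in the high combination (-2.45, adjusted p = 0.0341). The 1 combination call, that of IRS2, gave way to 2 others on the second probe set (1 to 1 without single arrays). IRS2 was then at -0.94 and not called, and 225330_at of IGF1R was called higher in 2 combination comparisons. The 0 dose calls became 1 with array weights (0 to 0). Same-numbered arrays deviated together in few pairs (r -0.27 to 0.13 in parental and -0.32 to 0.16 in resistant cells). With 2 or 3 arrays in a group, this cannot exclude that same-numbered arrays were handled together. The replicate block left the other counts at 18, 3 and 1. Directions turned as follows. At baseline, TYRO3 was at 0.00 (quantile), 0.12 (centred) and 0.04 (block), GAS6 at 0.03 (quantile), 0.18 (centred), 0.03 (mean of probe sets), 0.04 (weights), 0.01 (actin) and 0.14 (second probe set), and IRS2 at -0.11 (second probe set). With 0.1 µM GSK436 in parental cells, AXL was at 0.11 (mean) and 0.72 (second) and MET at 0.10 (second), and with 1 µM AXL was at 0.43 and MET at 0.18 (second). INSR with 30 nM GSK212 was at -0.09 without arrays of actin ratio above 20, and MET with 1 µM GSK436 in resistant cells at 0.04 (actin). On the second probe set the MET difference between lines was -0.13 at 0.1 µM and -0.63 at 1 µM GSK436. Leaving out single arrays gave -0.21 to 0.03 for GAS6, 0.00 to 0.91 for INSR and -0.08 to 0.37 for IRS2 at baseline, -0.09 to 1.33 for INSR with 30 nM GSK212 in parental cells and -0.37 to 0.14 for MET with 1 µM GSK436 in resistant cells. Over all 297 values of the 9 genes, 24 of them called, no pseudocount, no filter, every probe set fitted and no trend lost and gained 0 calls, while the mean of probe sets lost 14 and gained 2 and the second probe set lost 18, gained 6 and turned 3 called values. A filter at the 75th percentile leaves MERTK out. The causes were not tested. Signals near the filter, as for MERTK, limit what could be seen.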
